A study of Arabidopsis thaliana with 4 samples.

Results

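The plastid-encoded RNA polymerase genes rpoA, rpoB, rpoC1 and rpoC2 were followed in Arabidopsis thaliana seedlings with and without the Polycomb gene EMF2. They were chosen by gene symbol in the platform's annotation, which gives each of the 4 genes 1 probe set, out of 22810 probe sets on the array. All 4 were found, and the rule uses no measured value, though the members were chosen with earlier results of these data known. They belong to 69 plastid-encoded genes that could be named on this array.

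RNA of whole seedlings, 7 days old and grown in 8 h light and 16 h dark at 21 °C, was measured on 1 array for each of 4 groups. The groups were rescued emf2, which is the emf2 mutant carrying 35S::BoEMF2.1, the emf2 mutant itself, transWT, which is the wild type carrying 35S::BoEMF2.1, and WT. The EMF2 protein belongs to Polycomb repressive complex 2, which keeps flower genes silent in seedlings. The transgene BoEMF2.1 comes from Brassica oleracea and is driven by the 35S promoter, which is active in most plant tissues. Both transgenic groups grew on hygromycin and the other groups did not, so transgene and hygromycin cannot be told apart. The labels give the Columbia ecotype for WT only, and they name neither the emf2 allele nor the number of transgenic lines. With 1 array per group there is no replicate, so no difference below has a p-value.

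Chloroplasts transcribe their genome with a pair of unlike enzymes. The plastid-encoded polymerase is of the bacterial kind: rpoA encodes its alpha subunit, which holds the core together, rpoB the beta subunit and rpoC1 the beta′ subunit, which share the catalytic centre, and rpoC2 the beta″ subunit. Nuclear sigma factors guide this enzyme to promoters, and it makes most transcripts for photosynthesis. The other enzyme is a phage-type polymerase encoded in the nucleus. It transcribes the operon in which rpoB, rpoC1 and rpoC2 follow one another, whereas rpoA is the last gene of a long cluster of ribosomal protein genes elsewhere on the plastid chromosome.

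Values are array signals scaled to the same trimmed mean. A signal below 87.6, the 40th percentile over all arrays, was treated as too dim to order and is called below the floor. The arrays had 13394 probe sets above the floor in rescued emf2, 13399 in emf2, 13782 in transWT and 14015 in WT. For 43 genes with more than 1 probe set, the disagreement between their probe sets gave an error of a log2 ratio between 0.27 and 0.38 (SD), depending on the pair of arrays. That error covers only the disagreement between probe sets read on the same arrays. It leaves out errors shared by a whole array and the variation between plantings. Poly-A control RNAs were brighter on the transgenic arrays, with a median of 2.38-fold in rescued emf2 over emf2 and 1.92-fold in transWT over WT (7 probe sets). The same median was 1.64-fold in rescued emf2 over transWT, 2.48-fold in rescued emf2 over WT and 1.05-fold in emf2 over WT; their part in the results was not tested. Standard labelling of eukaryotic RNA starts from poly-A tails, which plastid transcripts largely lack, and the bearing of this on the rpo signals was not tested either. EMF2 has no named probe set here, so the genotypes were not checked by its signal.

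The rpo genes showed different profiles over the 4 arrays. The signal of rpoC1 was 642.7 in rescued emf2, 315.9 in emf2, 2080 in transWT and 1715 in WT. Both arrays of the wild-type background were brighter than both arrays of the emf2 background, and emf2 was dimmest. For rpoC2 the signal was 183.4 in rescued emf2, 42.5 in emf2, 832.4 in transWT and 490.2 in WT. This is the same order of arrays as for rpoC1, with emf2 below the floor.

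The alpha subunit gene rpoA had a signal of 1261 in rescued emf2, 1917 in emf2, 1845 in transWT and 4325 in WT. WT stood above the other arrays and rescued emf2 was dimmest. The emf2 and transWT arrays differed by a log2 ratio of 0.055 (emf2 over transWT), less than the probe-set error of 0.38 for that pair. The signal of rpoB was 24.9 in rescued emf2, 17 in emf2, 107.6 in transWT and 146.5 in WT. It was above the floor on the arrays of the wild-type background only, and close to it there, so the beta subunit gene gave bounds in most comparisons. Levels of different probe sets were not set against each other, since probe sets differ in brightness for the same amount of RNA.

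**Figure D1:**
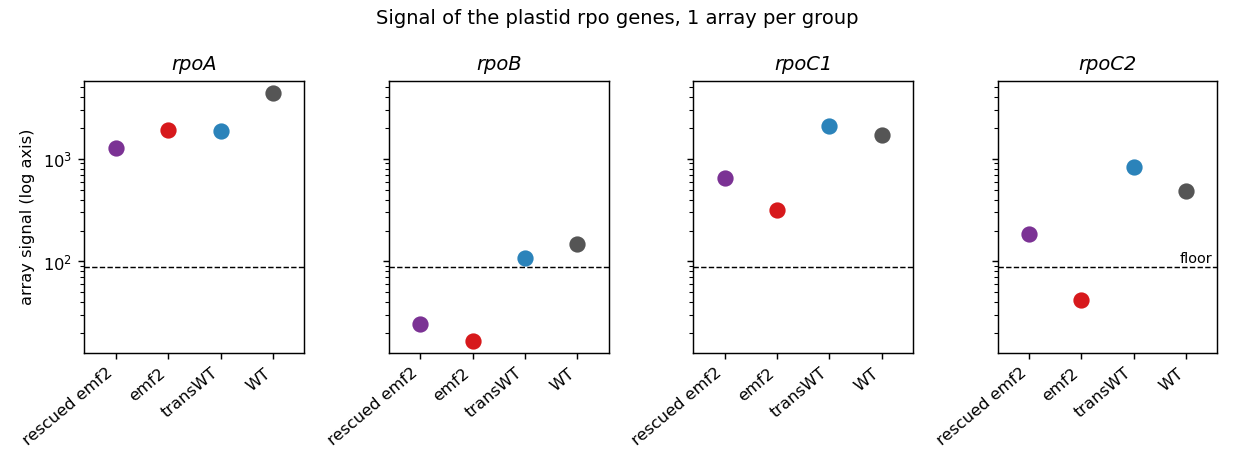
Array signal (log axis) of each rpo gene on the 4 arrays, 1 point per array, with the floor of 87.6 as a dashed line. rpoC1 and rpoC2 are lowest in emf2 and highest in transWT, rpoA is highest in WT and lowest in rescued emf2, and rpoB is below the floor in rescued emf2 and emf2.

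In plants without the transgene, emf2 was compared with WT. The rpoC1 signal was 5.43-fold lower in emf2 (log2 ratio -2.44), and rpoC2 was at least 5.60-fold lower, a bound because emf2 lay below the floor. The rpoA signal was 2.26-fold lower (log2 ratio -1.17), though within 2-fold with arrays scaled to their medians (-0.96), and rpoB at least 1.67-fold lower. Thus 3 of the 4 genes were at least 2-fold lower and none was at least 2-fold higher, where 11.1% of all 14653 measured probe sets were at least 2-fold lower and 7.34% higher. Other plastid-encoded genes were lower as well: 44 of 60 measured were at least 2-fold lower, with a median log2 ratio of -1.78, against a median of -0.02 for 7751 nuclear genes. Relative to the other plastid genes, rpoC1 was lower by 0.66 on the log2 scale and rpoA was higher by 0.60. Counted from the lowest ratio among 64 measured plastid genes, rpoC2 stood at place 11 with its bound, rpoC1 at place 12 and rpoA at place 45. Only 1.03% of all measured probe sets had a ratio as low as that of rpoC1.

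In whole seedlings, fewer green cells and less of a transcript per cell cannot be told apart. Of 10 leaf markers only RCA, the Rubisco activase, and PRK, the phosphoribulokinase of the Calvin cycle, had a named probe set. RCA read 12238 in emf2 and 16006 in WT, within 2-fold, and PRK read 4454 in emf2 and 11646 in WT, with a log2 ratio of -1.39. The sum of both leaf markers was 32162 in rescued emf2, 16692 in emf2, 37191 in transWT and 27652 in WT. Of 6 root markers 3 were named: the root hair expansin genes EXPA7 (log2 ratio 1.42) and EXPA18 (2.07) were higher in emf2 than in WT, and PYK10, a root beta-glucosidase, lay at 0.09. The summed root markers were 18754 in rescued emf2, 18206 in emf2, 18282 in transWT and 15775 in WT, of which PYK10 made up most. In rescued emf2 over emf2 EXPA7, EXPA18, RCA and PRK moved the other way. EXPA7 was 2.09-fold lower in rescued emf2 (log2 ratio -1.07, and -0.98 after quantile normalization) and EXPA18 2.96-fold lower (-1.57). RCA was at 1.0 (0.58 after quantile normalization) and PRK at 0.79. PYK10 was slightly positive again at 0.16, but at -0.31 after quantile normalization. The part of organ proportions in the rpo values was not tested.

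The emf2 background in the presence of the transgene was read from rescued emf2 over transWT, a pair that shares no array with emf2 over WT. The labels do not say whether the allele or the transgenic line was the same. In this pair rpoC2 was 4.54-fold lower in rescued emf2 (log2 ratio -2.18) and rpoC1 3.24-fold lower (-1.69). These signals were above the floor on both arrays, and the ratios were 6.21 and 4.82 times the probe-set error of this pair (0.35). The rpoA signal was 1.46-fold lower, a log2 ratio of -0.55 and 1.56 times that error, and rpoB was at least 1.23-fold lower. So 2 of the 4 genes were at least 2-fold lower and none was higher, against 2.99% of all 14250 measured probe sets lower and 2.26% higher. Other plastid genes had a median log2 ratio of -0.76, with 24 of 62 measured at least 2-fold lower. The rpoC2 ratio was the fifth lowest of 66 measured plastid genes, after psbB, psbT, ndhH and rpl22, and 0.119% of all measured probe sets were as low. It was lower than the median of the other plastid genes by 1.43 on the log2 scale, and rpoC1 was lower by 0.94.

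Across these separate pairs rpoC1 and rpoC2 were at least 2-fold lower both times, as were 2.08% of the 13792 probe sets measured in both and 23 of 60 other plastid genes. A difference in the same direction was common among plastid genes, since 57 of those 60 were below 0 in both pairs. All 4 rpo genes were also below 0 in both.

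**Figure D2:**
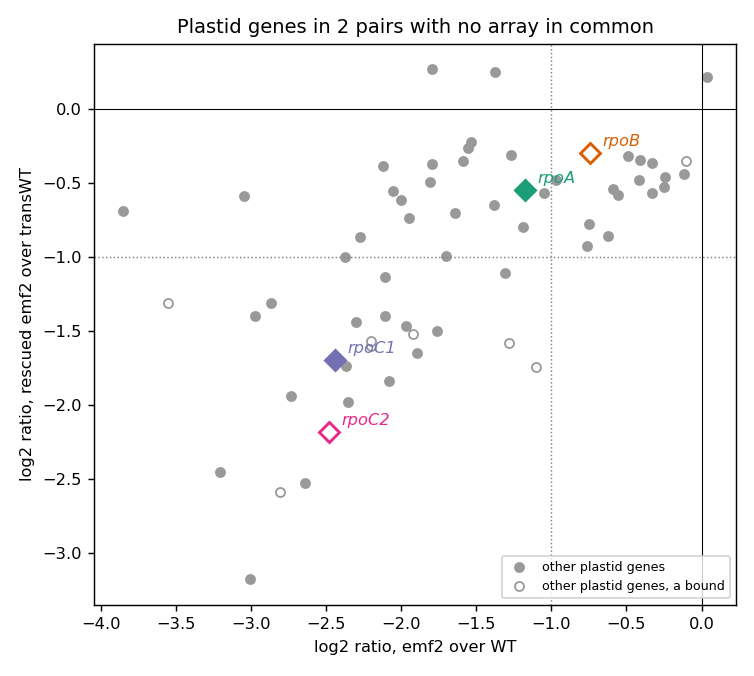
Log2 ratio of emf2 over WT (horizontal) against rescued emf2 over transWT (vertical) for plastid-encoded genes, with grey points for other plastid genes, coloured diamonds for rpo genes, open symbols where a ratio is a bound, and dotted lines at 2-fold. rpoC1 and rpoC2 lie past 2-fold in both pairs and rpoA past 2-fold in emf2 over WT only. For rpoB the plotted bounds do not reach 2-fold, and its true ratios may be lower.

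Rescued emf2 over emf2 sets the mutant with 35S::BoEMF2.1 against the mutant without it. The catalytic subunit gene rpoC1 was 2.03-fold higher in rescued emf2 (log2 ratio 1.02, 3.14 times the error of 0.33), and rpoC2 was at least 2.09-fold higher. By contrast, rpoA was 1.52-fold lower in rescued emf2 (log2 ratio -0.60, 1.85 times the error), and rpoB was below the floor on both arrays. In all, 2 of 3 measured rpo genes were at least 2-fold higher and none at least 2-fold lower, against 5.85% of 14122 measured probe sets higher and 4.97% lower. A 60th-percentile floor left 1 of them, because rpoC2 was then below the floor on both arrays. Counting only ratios with both arrays above the floor also left 1, because the rpoC2 ratio is a bound. In this pair the root markers EXPA7 and EXPA18 were lower, and the root marker PYK10 was at 0.16. The leaf markers RCA and PRK were at 1.0 and 0.79, with RCA at 0.58 after quantile normalization. Of 57 other plastid genes 27 passed 2-fold in that direction. As a group they had a median log2 ratio of 0.81, while rpoC1 stood 0.21 above it, and rpoA, 1.42 below it, was the third lowest of 60 plastid genes.

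In the wild type the transgene was read from transWT over WT. Here rpoA was 2.34-fold lower in transWT (log2 ratio -1.23, 3.73 times the error of 0.33). It was the only rpo gene past 2-fold, where 5.32% of 14620 measured probe sets were at least 2-fold lower and 3.88% higher. The rpoC2 signal was 1.70-fold higher (log2 ratio 0.76, 2.32 times the error), rpoC1 1.21-fold higher (0.28, within 1 error) and rpoB 1.36-fold lower (-0.45, 1.35 times the error). Other plastid genes had a median of 0.23, and rpoA was the third lowest of 66. Both transgene ratios were negative for rpoA. Among 57 other plastid genes measured in both pairs, 8 had both ratios below 0, namely psbJ, psbL, psbE, psaC and ndhH of photosystems and the NDH complex, and rpl36, rps3 and rpl22 of the ribosome. They were named after their values were seen. Their number was 7 with arrays scaled to their medians and 10 after quantile normalization or cyclic loess, with rpoA below 0 in both pairs each time. Which genes these were also changed: psaC dropped out under each of these scalings and ndhH after cyclic loess, while others such as psbK and psbM entered after quantile normalization and cyclic loess.

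The transgene ratio in the mutant minus that in the wild type was 0.75 on the log2 scale for rpoC1 and 0.63 for rpoA, with a median of 0.63 for 57 other plastid genes. Of all probe sets measured in both pairs, 18.9% differed by at least as much as rpoC1 and 25.8% by at least as much as rpoA. For rpoC2 the difference was at least 0.30, because the ratio in the mutant is a bound.

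Rescued emf2 was also compared directly with WT. The signal of rpoA was 3.43-fold lower in rescued emf2 (log2 ratio -1.78), rpoC2 2.67-fold lower (-1.42) and rpoC1 2.67-fold lower (-1.42), and rpoB was at least 1.67-fold lower. That is 3 of 4 genes at least 2-fold lower, and none higher, against 9.9% of 14593 measured probe sets lower and 5.91% higher. Of 60 other plastid genes 16 were at least 2-fold lower, with a median of -0.60. These ratios share their arrays with the comparisons above and are no further evidence for them.

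**Figure D3:**
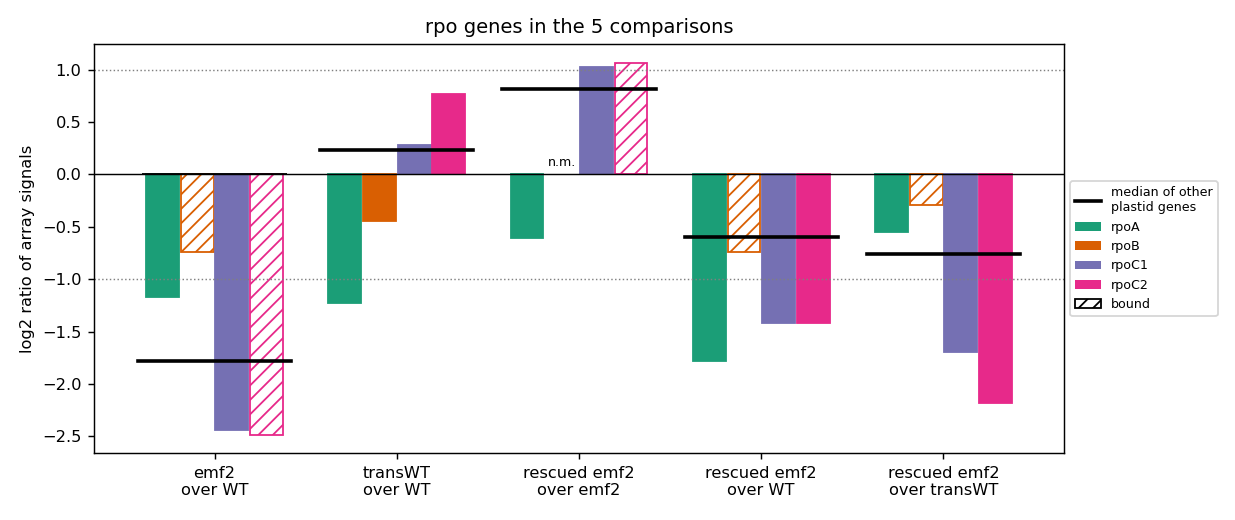
Log2 ratio of array signals (vertical) for rpoA, rpoB, rpoC1 and rpoC2 in the 5 comparisons, with hatched bars for bounds, "n.m." where both arrays were below the floor, black lines for the median of the other plastid genes and dotted lines at 2-fold. rpoC1 and rpoC2 lie on the same side of 0 as the plastid median in every comparison, and rpoA lies below 0 in all 5.

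The rpo genes were then set beside their neighbours on the plastid chromosome, whose order was taken from RefSeq's TAIR10.1 annotation. The genes rps2, atpI, atpH, atpF and atpA follow rpoC2, with rps2 encoding a ribosomal protein and the atp genes subunits of the ATP synthase. In emf2 over WT all 5 were at least 2-fold lower. The atpI ratio was a bound (at least 2.43-fold, log2 ratio -1.28). The others ran from atpA (3.51-fold, -1.81) to rps2 (8.27-fold, -3.05). In transWT over WT the 5 genes lay between 0.14 (atpF) and 0.83 (atpA), all positive like rpoC1 and rpoC2. In rescued emf2 over emf2 the 4 measured ones were higher, with log2 ratios between 1.52 (atpF) and 2.84 (rps2), where rpoC1 was at 1.02 and rpoC2 at a bound of 1.07. The signal of rps2 was 1880 in rescued emf2 and 2174 in WT, a log2 ratio of -0.21 (0.04 with arrays scaled to their medians), whereas rpoC1 and rpoC2 were at -1.42 in that comparison. On the other side of rpoB, petN, a small cytochrome b6f subunit gene, had signals between 59.8 and 111.5. In transWT over WT it was within 2-fold (log2 ratio 0.24). Its other measured ratios were bounds, which do not show whether it passed 2-fold. The next gene, psbM, of photosystem II and named after its values were seen, read between 17520 and 20329 on all 4 arrays.

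The neighbourhood of rpoA looked different in transWT. The measured genes beyond rpoA were rpl36, rpl14, rpl16, rps3, rpl22 and rps19, all of the ribosome. Of these rps3, rpl22 and rps19 were added after their values were seen. In transWT over WT rpl36 was 5.81-fold lower, rpl14 3.58-fold and rpl22 2.14-fold, and these were the 3 plastid genes besides rpoA, among 62 measured, that were at least 2-fold lower. With arrays scaled to their medians rpl22 lay within 2-fold (-0.94). The other 3 measured genes of the cluster were within 2-fold, with rpl16 at 0.08, rps3 at -0.35 and rps19 at -0.50. On the opposite side, the genes from psbB to petB had log2 ratios between -0.22 (psbT) and 0.65 (petB), none past 2-fold, and petD was below the floor on every array. These genes, which encode photosystem II and cytochrome b6f subunits, were also named after their values were seen.

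Within this cluster rpl36 had a signal of 177.1 in rescued emf2, 592.0 in emf2, 677.5 in transWT and 3939 in WT. That is the array order of rpoA except that transWT was above emf2. Its ratios were larger than those of rpoA throughout: -2.73 in emf2 over WT, -2.54 in transWT over WT, -1.74 in rescued emf2 over emf2 and -4.48 in rescued emf2 over WT. The cluster did not follow 1 profile, because rpl16 read 1056 in rescued emf2 and 111.6 in emf2, 3.24 higher on the log2 scale, where rpoA was lower.

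**Figure D4:**
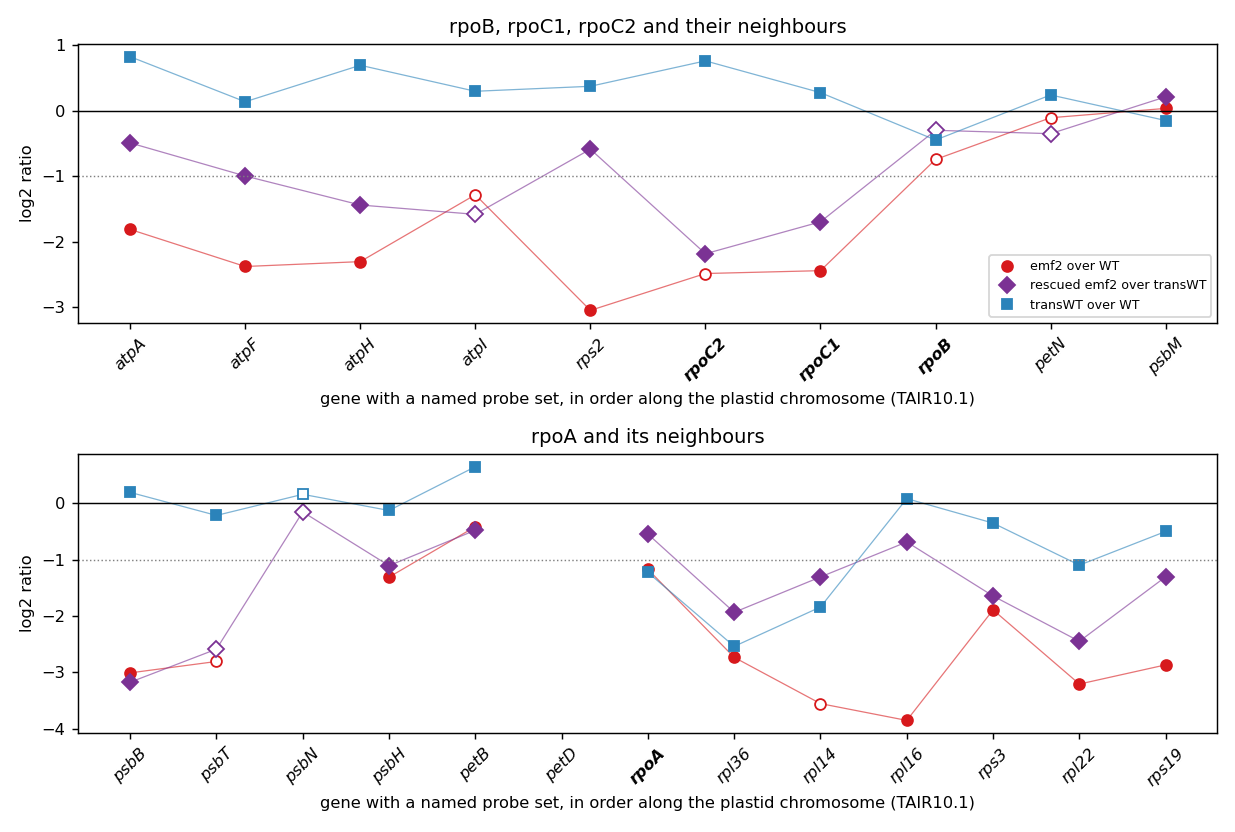
Log2 ratios (vertical) of emf2 over WT (circles), rescued emf2 over transWT (diamonds) and transWT over WT (squares) for genes with a named probe set in their order along the plastid chromosome, around rpoB, rpoC1 and rpoC2 (top) and around rpoA (bottom); open symbols are bounds and gaps are genes not measured. In transWT over WT the genes from atpA to rpoC1 are positive, while rpoA, rpl36, rpl14 and rpl22 are past 2-fold below 0.

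Other plastid genes known to be read mainly by the nuclear-encoded polymerase were represented by accD, for fatty acid synthesis, and clpP, a protease subunit; ycf1 and ycf2 were not analysed here. The signal of accD was 597.6 in rescued emf2, 210.6 in emf2, 1571 in transWT and 907.1 in WT, the same array order as rpoC1 and rpoC2. For clpP it was 8748 in rescued emf2, 2727 in emf2, 7346 in transWT and 7086 in WT, so that rescued emf2 was the brightest array. In emf2 over WT both were at least 2-fold lower (log2 ratios -2.11 for accD and -1.38 for clpP), and in rescued emf2 over emf2 both were at least 2-fold higher (1.50 and 1.68). In rescued emf2 over transWT accD was at -1.39, near rpoC1, and clpP at 0.25.

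By class, the share of plastid genes past 2-fold below WT in emf2 was 6 of 6 for the ATP synthase, 11 of 14 for ribosomal proteins, 7 of 9 for the NDH complex, 11 of 19 for photosystems and 2 of 4 for cytochrome b6f. In rescued emf2 over transWT it was 2 of 6 for the ATP synthase, 7 of 14 for ribosomal proteins, 3 of 9 for the NDH complex, 7 of 20 for photosystems and 1 of 5 for cytochrome b6f, beside 2 of 4 for the polymerase. With 4 members the polymerase was not distinguished from these classes.

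The nuclear genes listed for comparison with the rpo genes were scarcely represented. Of 30 listed genes, namely 6 sigma factors, 3 phage-type polymerases, 15 polymerase-associated proteins and 6 factors that edit or splice rpo and other plastid transcripts, 5 had a named probe set, and the sigma factors and associated proteins were not analysed here. The phage-type polymerase gene AT5G15700 was below the floor on all 4 arrays, as were the editing factor gene AT3G22690 (YS1) and the splicing factor gene OTP70. OTP81, an editing factor, had signals of 70.3 in rescued emf2, 126.2 in emf2, 55.7 in transWT and 170.8 in WT. It was above the floor on the arrays without the transgene only. In emf2 over WT it was 1.35-fold lower. It was at least 1.95-fold lower in transWT over WT and in rescued emf2 over WT. In rescued emf2 over emf2 it was at least 1.44-fold lower. Such bounds do not show whether it passed 2-fold. CRR22, another editing factor, read 82.5 in rescued emf2, 71.8 in emf2, 111.4 in transWT and 92.8 in WT, on both sides of the floor.

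The genes whose profiles lay nearest to each rpo gene were found among 7493 named genes above the floor on at least 2 arrays, by the Euclidean distance between log2 signals over the 4 arrays, each centred on its own mean. With 4 arrays many genes share a profile, so these are descriptions. For rpoC1 the nearest were AT4G17810 (distance 0.19), the plastid ribosomal protein gene rps15 (0.25), AT1G29660 (0.34), AT1G69160 (0.36) and AT3G01490 (0.37), and rpoC2 stood at place 10 (0.43). For rpoC2 they were BZIP61, a transcription factor gene (0.40), AT5G25840 (0.40), rpoC1 (0.43), AT4G17810 (0.47) and the photosystem II gene psbD (0.53). The nearest 20 genes held 8 plastid genes for rpoC1 and 7 for rpoC2.

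For rpoA the nearest genes were all nuclear: AT3G13940 (distance 0.044), AT1G09900 (0.060), AT5G05890 (0.096), AT3G60380 (0.16) and MRL7-L (0.17). No plastid gene was among its nearest 20, and its distance was 1.98 from rpoC1 and 2.36 from rpoC2. The same was true of rpoB, whose nearest genes were AT1G68080 (0.016), AT2G27950 (0.018), AT3G55080 (0.051), AT4G19010 (0.054) and AT5G66520 (0.055). Because rpoB was set to the floor on 2 arrays, its profile there is that of the floor.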

How the data were processed

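The deposited values are intensities on a linear scale, 1 per probe set and array, made by the authors by MAS5 (per the submitters' processing notes), of which neither version nor settings were known. MAS5 subtracts mismatch-probe signal, which makes dim values noisy. Biotin-labelled cRNA was made by a standard Affymetrix protocol, per the labels' protocols. The 2%-trimmed mean was 500.0 on every array, so arrays had been scaled before deposit. No column was left unused.

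Arrays were brought to exactly equal 2%-trimmed means. The floor was the 40th percentile of the 22746 probe sets other than 64 controls (87.6), and signals under it were set to it. Single arrays were then compared by log2 ratio in 5 comparisons. A probe set counted as higher or lower at 2-fold if its brighter array was above the floor; below it on both arrays it was not measured. With the dimmer array below the floor the ratio is a bound ("at least"). No array has a depth in counts, and precision is limited by there being 4 arrays. The calculation of ratios and calls was tested on simulated data. Python 3.11.15, pandas 2.3.3 and limma 3.58.1 (quantile and cyclic loess normalization) were used.

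Of 14016 probe sets in the platform's annotation, 13513 name 1 gene and 13436 of these matched RefSeq (TAIR10.1, used for names and gene order only). Of several probe sets for a gene the brightest was used. No mitochondrial gene was matched, so those were not analysed here. The members, lists and comparisons were chosen with earlier results of these data known. Named genes are the members, the measured genes of the fixed lists, the 5 nearest profiles of each member, and others the text marks as named after their values were seen. Alternatives were other scalings, floors, thresholds and the exclusion of bounds.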

Additional observations from a re-analysis of the deposited data

Results flagged for a closer look

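Among the genes named beside the rpo genes, 3 had ratios of opposite sign in the 2 settings of the same contrast, at least one of them past 2-fold; the difference itself was not tested. For clpP the log2 ratio was 0.25 in rescued emf2 over transWT and -1.38 in emf2 over WT, so that the value without the transgene minus the value with it was -1.63. For rpl14, of the rpoA cluster, the ratio was at least 0.40 in rescued emf2 over emf2 and -1.84 in transWT over WT, a difference of at least 2.25. For rps19, of the same cluster, it was 1.06 in rescued emf2 over emf2 (0.99 after cyclic loess, within 2-fold) and -0.50 in transWT over WT, a difference of 1.56.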

How the results depend on the processing

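The values as deposited gave the same calls, and no ratio of an rpo gene past 2-fold changed sign under any alternative run. The count of rpo genes at least 2-fold higher in rescued emf2 over emf2, 2 in the report, was 1 for a 60th-percentile floor, 1 when only ratios with both arrays above the floor were used, and 0 at a 3-fold threshold; 1 gene, rpoA, was lower there at 1.5-fold, against 0. In transWT over WT 1 gene, rpoC2, was higher at 1.5-fold, against 0, and 0 were lower at 3-fold, against 1. In rescued emf2 over WT 1 gene was lower at 3-fold, against 3. In emf2 over WT, rpoA lay within 2-fold with arrays scaled to their medians (-0.96). With the floor at the 60th percentile rpoC2 was a bound that did not reach 2-fold in emf2 over WT (-0.92). The same held for rpoC2 in rescued emf2 over WT (-0.92). The bound for rpoB depends on the floor: at the 25th percentile it passed 2-fold in emf2 over WT (-2.26), rescued emf2 over WT (-2.26) and rescued emf2 over transWT (-1.81), and with no floor and a pseudocount of 1 the ratios were -3.04, -2.51 and -2.07. Scaling to the median moved the median of all measured probe sets in emf2 over WT to 0.15, from -0.052, and the split of calls with it, to 1603 higher and 1163 lower, against 1076 and 1633. By that scaling the split was 804 higher and 529 lower in transWT over WT (567 and 778 in the report), 1404 and 837 in rescued emf2 over WT (863 and 1444), and 423 and 328 in rescued emf2 over transWT (322 and 426). After cyclic loess it was 673 and 610 in transWT over WT and 1047 and 1048 in rescued emf2 over WT, and after quantile normalization 1063 and 1093 in rescued emf2 over WT. No paired analysis was possible because each group has 1 array.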
